A study of Mus musculus with 6 samples.

Results

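The 9 genes of catecholamine synthesis, storage, uptake and breakdown were followed among 19938 genes measured on 6 whole-transcript arrays of mouse N2A cells. They were chosen by symbol as Gch1, Th, Ddc, Dbh, Pnmt, Slc18a1, Slc18a2, Slc6a2 and Maoa, and each had a single probe set. The choice was made with earlier results of these data known. N2A (Neuro-2a) is an established mouse neuroblastoma line. The 3 control arrays come from cells transiently transfected with a non-targeting hairpin vector, and the 3 Pax6 knockdown arrays from cells that received the Pax6 hairpin instead. Pax6 is a transcription factor needed in the developing eye and forebrain. The study's methods give 1.5 µg of vector per transfection and RNA taken at most 3 days later. Its checks of Pax6 protein and transcript after the hairpin were made at 3 days, and no separate time is given for the arrays. The study reports that the hairpin reduced PAX6 protein. Per the study's methods the hairpins were driven by a U6 promoter, and no sorting of transfected cells is described there, so each array averages over a whole culture. Fewer cells that make a transcript and less transcript per cell cannot be told apart in such bulk samples. The comparison asks how these genes differ between cultures given the Pax6 hairpin and cultures given the control. Effects of that hairpin outside Pax6 cannot be told apart from those of lowered Pax6 in this design.

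Catecholamines are made from tyrosine in a short chain of steps. Tyrosine hydroxylase (Th) forms L-DOPA with the cofactor tetrahydrobiopterin, whose synthesis from GTP starts with GTP cyclohydrolase (Gch1). The aromatic amino acid decarboxylase (Ddc) turns L-DOPA into dopamine, and a vesicular monoamine transporter (Slc18a1, known as VMAT1, or Slc18a2, known as VMAT2) loads it into secretory vesicles. There dopamine beta-hydroxylase (Dbh), a copper enzyme that uses ascorbate, makes noradrenaline, which Pnmt can methylate to adrenaline. Released noradrenaline is taken back up by the transporter Slc6a2 and oxidised by monoamine oxidase A (Maoa). Sympathetic neurons and adrenal chromaffin cells, the lineage from which neuroblastoma arises, use this pathway.

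The hairpin is shown because it is the only difference planned between the groups. The study's oligonucleotide list holds 1 hairpin against Pax6, and the sample labels do not name the hairpin used. Capitals mark the loop and the terminal stretch of the forward oligonucleotide, which is 52 bases long.
Pax6 hairpin, forward oligonucleotide: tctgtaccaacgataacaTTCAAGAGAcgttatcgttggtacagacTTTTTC

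Promoter windows are shown for 4 genes that the results below return to. Each runs from 250 bases before to 50 bases after a RefSeq start site (build GRCm38.p6), written 5′ to 3′ on the gene's strand, and 6 of the 9 genes matched this table. Capitals mark ATTA, the core that many homeodomain proteins bind, and TGACGTCA, the cAMP response element, on either strand. The sites do not overlap each other in these 4 windows.
Dbh, chr2:27165257-27165556, plus strand: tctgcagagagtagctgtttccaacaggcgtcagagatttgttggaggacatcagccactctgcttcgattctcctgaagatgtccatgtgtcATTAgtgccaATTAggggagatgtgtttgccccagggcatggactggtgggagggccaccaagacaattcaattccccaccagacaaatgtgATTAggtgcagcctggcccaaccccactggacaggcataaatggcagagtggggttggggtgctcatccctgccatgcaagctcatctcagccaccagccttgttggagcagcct
Slc18a2, chr19:59260628-59260927, plus strand: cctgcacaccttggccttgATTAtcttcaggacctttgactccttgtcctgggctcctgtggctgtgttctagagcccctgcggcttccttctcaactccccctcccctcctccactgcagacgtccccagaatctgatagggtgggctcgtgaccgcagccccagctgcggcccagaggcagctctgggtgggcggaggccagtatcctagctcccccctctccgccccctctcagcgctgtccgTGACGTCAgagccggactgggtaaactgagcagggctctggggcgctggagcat
Th, chr7:142899946-142900245, minus strand: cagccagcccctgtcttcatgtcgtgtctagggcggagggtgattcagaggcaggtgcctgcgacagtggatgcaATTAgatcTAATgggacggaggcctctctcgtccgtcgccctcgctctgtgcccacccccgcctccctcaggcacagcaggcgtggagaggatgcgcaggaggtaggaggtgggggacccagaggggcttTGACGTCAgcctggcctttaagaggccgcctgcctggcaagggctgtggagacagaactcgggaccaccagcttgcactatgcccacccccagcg
Gch1, chr14:47189364-47189663, minus strand: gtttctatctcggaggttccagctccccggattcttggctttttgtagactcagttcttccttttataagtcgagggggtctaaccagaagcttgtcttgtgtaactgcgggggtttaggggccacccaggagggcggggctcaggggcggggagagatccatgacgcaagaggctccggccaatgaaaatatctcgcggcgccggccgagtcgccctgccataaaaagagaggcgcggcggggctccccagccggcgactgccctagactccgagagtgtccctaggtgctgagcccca

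The Dbh window held ATTA 3 times, and 20% of all 32851 RefSeq windows of this length held it at least 3 times. Th held it 2 times (at least 2 in 34.1% of all windows), Slc18a2 1 time (at least 1 in 58%) and Gch1 0 times. TGACGTCA occurred 1 time each in Th and Slc18a2, against 1.79% of all windows with at least 1, and 0 times in Dbh and Gch1. The E-box CAGCTG was also searched on both strands, and of these 4 windows Slc18a2 held it (1 time, against 16.3% of all windows). Of the windows not shown, the 2 of Ddc held ATTA 3 and 2 times, and that of Maoa 0 times. None of these windows of Ddc and Maoa held TGACGTCA or CAGCTG. These are matches of letters in a window and not measured sites.

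Pax6 transcript, the target of the hairpin, was lower on each knockdown array than on each control array. Its log2 fold change, knockdown minus control here and below, was -0.38 (standard error, SE, 0.071, limma adjusted p = 0.0382). Leaving out any control array or knockdown replicate 3 ended this call, with adjusted p reaching 0.180, and so did a variance filter (adjusted p = 0.231). Of the sympathetic noradrenergic markers, Th, Dbh, Phox2a, Hand2 and Gata3 lay above the array median on all 6 arrays. The vesicular glutamate transporter genes (0 of 3) and macrophage markers (0 of 5) did not reach it on any array, and of 4 glial markers Sox10 alone did. Markers above the median on all 6 arrays numbered 3 of 8 for midbrain dopamine neurons, 1 of 3 for serotonin neurons, 1 of 3 for cholinergic neurons, 0 of 3 for GABAergic neurons and 2 of 5 for fibroblasts. Markers under the low-value filter given below were not tested, and 0 of the glutamate transporter and macrophage markers were. Of those tested, Dbh was the one called between the groups at 10% FDR. With the replicate block described below, Gata3 was also called lower (limma adjusted p = 0.0703). Over all tested genes 6.67% were called, and 17.9% with the block.

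Values are log2 RMA summaries, and a gene was tested if 3 or more of the 6 arrays gave it a value above that array's median. Of the 9 catecholamine genes 6 were tested, namely Gch1, Th, Ddc, Dbh, Slc18a1 and Slc18a2, while Pnmt, Slc6a2 and Maoa lay below the median on all 6 arrays. Slc18a1 was tested only through its 3 control arrays, since its knockdown values were under the median. At a false discovery rate (FDR) of 10% by limma over all tested genes, Dbh and Slc18a1 changed, both lower in the knockdown. Genes that changed in either direction made up 6.67% of the 11424 tested, those lower made up 3.88% and those higher 2.79%. That balance turned without knockdown replicate 2, to 820 genes higher and 465 lower. With no low-value filter the same 2 of the 9 passed, against 1.23% of all 19938 genes. The labels number the replicates 1 to 3 in both groups, and arrays of one number deviated together, so the fit was also run with the number as a block. With it, 4 of the 9 genes changed, the additional ones being Slc18a2, lower, and Gch1, higher, while 17.9% of all tested genes changed (8.91% lower, 8.96% higher). The block with no filter also gave 4 of the 9, against 4.24% of all genes. In 4 of the 9 genes the knockdown array was lower in all 3 same-numbered pairs, and in 1, Gch1, it was higher in all 3. Of all tested genes 21.3% were lower in every pair, and 49.7% went one way in every pair. Over all 9 genes without a filter the median log2 fold change was -0.11, against 0.012 over all 19938 genes.

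**Figure D1:**
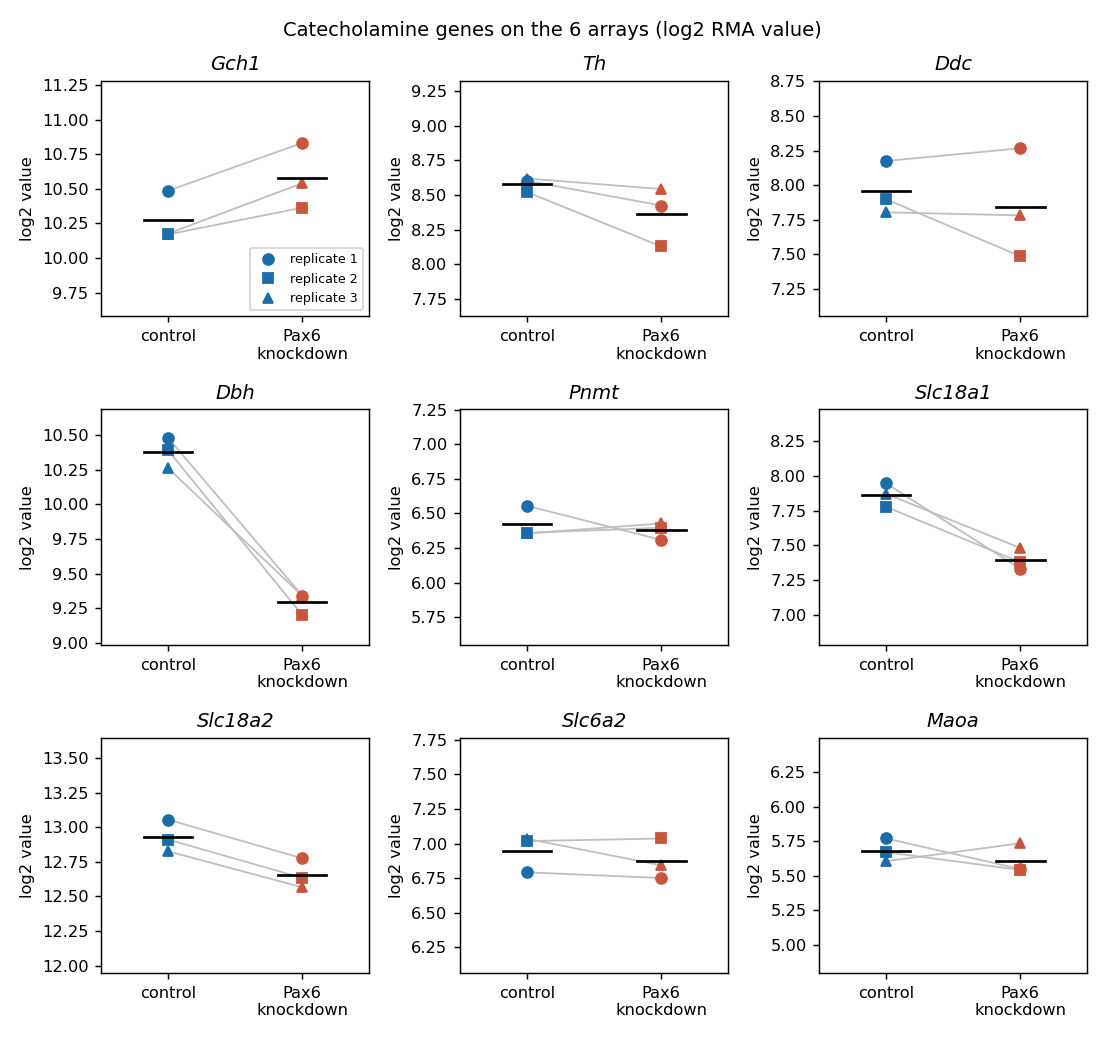
Log2 RMA value (vertical axis, the same span of 1.7 in each panel) of the 9 genes in control and Pax6 knockdown arrays. Symbols give the replicate number, grey lines join arrays of one number and black bars are group means. Dbh, Slc18a1 and Slc18a2 are the genes whose groups do not overlap.

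Dbh, the enzyme of noradrenaline synthesis, had by far the largest difference of the 9. Its log2 values were 10.48, 10.39 and 10.26 on the control arrays and 9.34, 9.20 and 9.34 on the knockdown arrays. The lowest control value was thus above the highest knockdown value by several times the spread within either group. Control cells averaged 10.38 ± 0.11 (SD, n = 3) and knockdown cells 9.29 ± 0.080 (SD, n = 3). This gives a log2 fold change of -1.08, with SE 0.077, a 95% confidence interval from -1.26 to -0.90 and a limma adjusted p of 0.00163. On the linear scale the signal fell by 52.8%. Among the 11424 tested genes it had the 8th largest fall and the 5th lowest p. Dbh stayed past 10% FDR in all 17 alternatives run, with fold changes from -1.14 to -1.002. In the control cells its probe set stood between percentiles 80.9 and 82.8 of all probe sets of an array, and in the knockdown cells between percentiles 69.9 and 70.3, so it remained above the array median.

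Slc18a1, the vesicular transporter typical of chromaffin cells, also fell. Its log2 values were 7.95, 7.78 and 7.87 in control and 7.33, 7.38 and 7.48 in knockdown. The groups did not overlap. The difference was -0.47 on the log2 scale with SE 0.071 (95% confidence interval from -0.63 to -0.30, limma adjusted p = 0.0222), and the linear signal fell by 27.8%. The call held in all 16 alternatives that tested the gene, with adjusted p up to 0.0964 when single arrays were left out. The tested genes were held fixed there, so Slc18a1 stayed in the test when a control array was left out. The control values lay between percentiles 53.9 and 54.8 of their arrays and the knockdown values between percentiles 46.4 and 49.5.

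Slc18a2, the second vesicular transporter, is the one used by most brain monoamine neurons and by sympathetic neurons. Its log2 values were 13.05, 12.91 and 12.83 in control and 12.77, 12.63 and 12.57 in knockdown, between percentiles 96.3 and 97.7 of their arrays. The groups did not overlap, though the gap between them was smaller than the spread within a group. In both groups replicate 1 was highest and replicate 3 lowest, and the drop within each number was nearly the same, at -0.28, -0.28 and -0.26. The log2 fold change was -0.27 with SE 0.084 and limma adjusted p = 0.131 without the block, and SE 0.052 and adjusted p = 0.0249 with it. Dbh, Slc18a1 and Slc18a2 were the 3 of the 9 genes whose groups did not overlap, all lower in the knockdown. Of the tested genes 25.6% had groups that did not overlap (11.7% lower), and of all 19938 genes 17.1%.

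Gch1, the gate enzyme of cofactor synthesis, was the 1 gene of the 9 with a positive difference. Its log2 values were 10.49, 10.17 and 10.18 in control and 10.83, 10.36 and 10.54 in knockdown. The groups overlapped, because the control array of replicate 1 lay above the knockdown array of replicate 2. Within each replicate number the knockdown array was higher, by 0.34, 0.19 and 0.36. The log2 fold change was 0.30, or 23.2% more signal, with SE 0.13 and limma adjusted p = 0.278 without the block. With the block the estimate was the same, and Gch1 passed 10% FDR as higher (SE 0.059, adjusted p = 0.0268). With single arrays left out the fold change ran from 0.17, without knockdown replicate 1, to 0.41, without knockdown replicate 2.

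**Figure D2:**
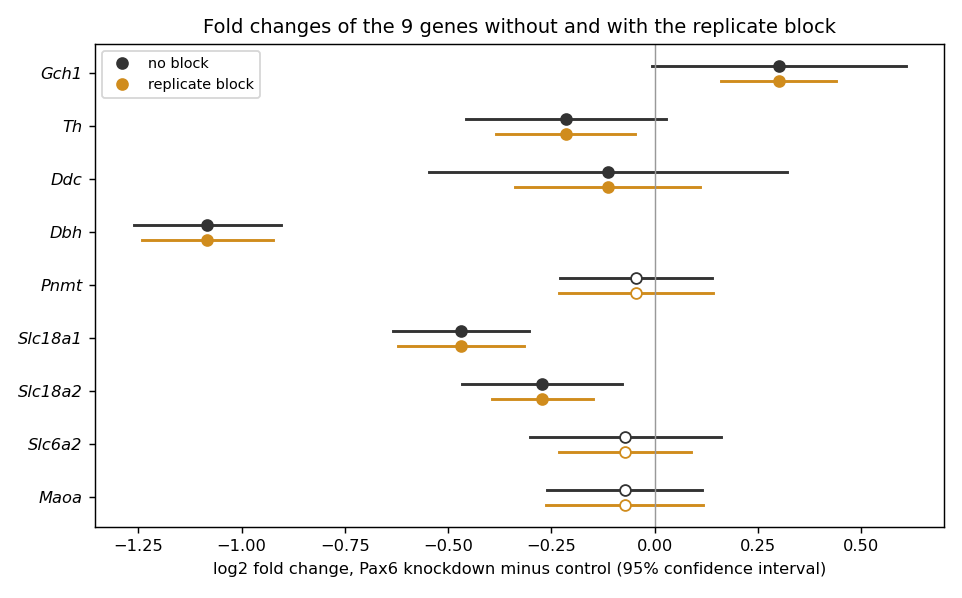
Log2 fold change of each gene (horizontal axis, knockdown minus control) with its 95% confidence interval, without the replicate block in black and with it in orange. Open points are the 3 genes under the low-value filter, fitted with no filter. The block leaves each estimate in place. The intervals of Gch1 (0.30) and Th (-0.22) include 0 without the block and not with it, and that of Slc18a2 (-0.27) lies below 0 in both and is narrower with it.

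Th, which encodes the rate-limiting enzyme, did not pass the test. Its log2 values were 8.60, 8.52 and 8.62 in control and 8.42, 8.13 and 8.54 in knockdown. The highest knockdown value lay above the lowest control value, and knockdown replicate 2 stood apart below the rest. The log2 difference was -0.22, with a 95% confidence interval from -0.46 to 0.027 and a limma adjusted p of 0.318, and with the block the adjusted p was 0.102. Without knockdown replicate 2 the fold change was -0.10. A fall as large as that of Dbh lies outside the interval of Th.

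Ddc had the widest spread of the 9 genes. Its log2 values were 8.17, 7.90 and 7.80 in control and 8.27, 7.49 and 7.78 in knockdown, so the knockdown group held both the highest and the lowest of the 6. The log2 difference was -0.11, its 95% confidence interval ran from -0.55 to 0.32 and the limma adjusted p was 0.820. Without knockdown replicate 2 it changed sign, to 0.065.

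The genes of adrenaline synthesis, reuptake and oxidation gave signals below the array median in every sample. Pnmt values ran from 6.36 to 6.55 in control and from 6.31 to 6.43 in knockdown. Slc6a2 values ran from 6.79 to 7.03 in control and from 6.75 to 7.04 in knockdown. Maoa values ran from 5.61 to 5.77 in control and from 5.54 to 5.73 in knockdown, between percentiles 14.4 and 18.6 of their arrays. All 3 pairs of groups overlapped. Fitted with no filter, their log2 fold changes were -0.046, -0.071 and -0.073 with limma adjusted p of 0.959, 0.942 and 0.908. Their 95% confidence intervals ran from -0.23 to 0.14, from -0.30 to 0.16 and from -0.26 to 0.12, so no difference was detected. Detection over background was not measured, and a signal at background cannot register a fall. These intervals therefore cannot exclude a fall in transcript as large as that of Dbh.

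**Figure D3:**
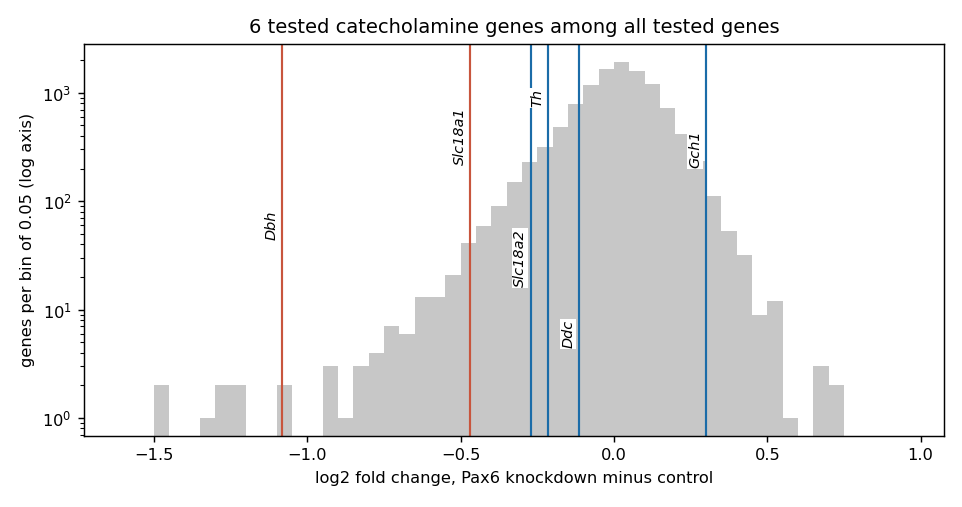
Number of tested genes (vertical axis, logarithmic) by log2 fold change (horizontal axis) for all 11424 tested genes in grey. Vertical lines mark the 6 tested catecholamine genes, red where they passed 10% FDR without the block (Dbh -1.08, Slc18a1 -0.47) and blue where they did not.

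Differences between pairs of these genes were compared within each array, for 3 pairs chosen after their values were seen. The p-values below therefore describe how the arrays separate and are no test of these pairs. The log2 difference of Dbh minus Th was lower in the knockdown by 0.87, and the difference of Gch1 minus Th was higher by 0.52. In both, the 3 knockdown arrays lay on one side of the 3 control arrays (two-sided exact permutation test p = 0.10, the smallest that 3 against 3 arrays can give, and 0.15 after Benjamini-Hochberg adjustment over the 3 pairs). For Slc18a1 minus Slc18a2 the shift was -0.20 and the groups overlapped (exact permutation p = 0.30, adjusted 0.30). Within the same-numbered pairs this difference was lower in the knockdown each time, by shifts of -0.34, -0.12 and -0.13, which were not tested as pairs.

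**Figure D4:**
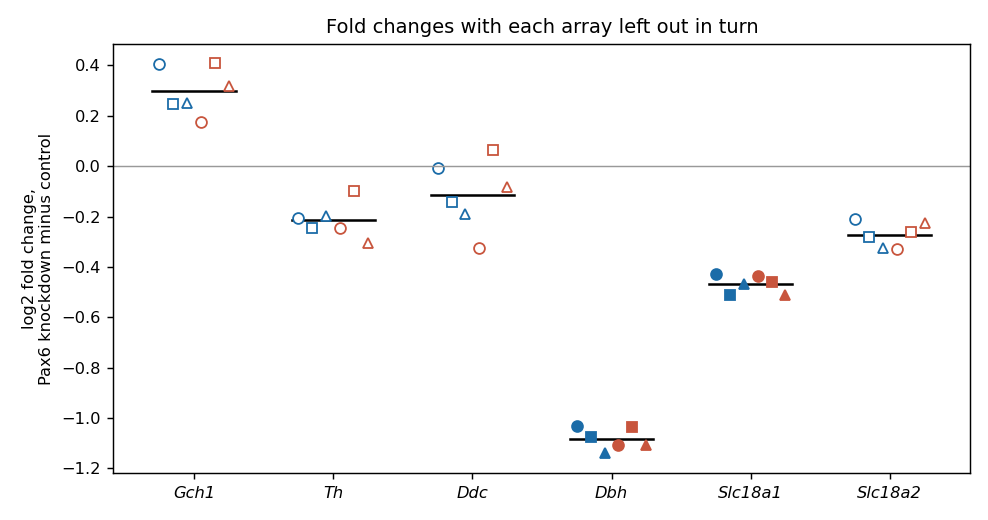
Log2 fold change (vertical axis) of the 6 tested genes with 1 array left out at a time. Blue symbols leave out a control array and red symbols a knockdown array (circle, square and triangle for replicates 1, 2 and 3), filled where the gene passed 10% FDR, and the black bar is the value from all 6 arrays. Dbh and Slc18a1 stay filled throughout, and Ddc crosses 0 without knockdown replicate 2 (0.065).

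Genes that supply the pathway's cofactors gave 1 fall and 0 rises among 10 tested, against 3.88% lower and 2.79% higher over all tested genes. With the block they gave 2 falls and 1 rise, against 8.91% lower and 8.96% higher. Their median log2 fold change was 0.016, against 0.012 over all 19938 genes. The fall was in Atp7a, which encodes the copper pump that loads secretory copper enzymes, at -0.70 (SE 0.10, limma adjusted p = 0.0213). Its means were 10.26 ± 0.042 (SD, n = 3) and 9.56 ± 0.22 (SD, n = 3), and the call did not survive leaving out control replicate 2 or knockdown replicate 3, where the adjusted p reached 0.126. Of the remaining cofactor genes, the next were chosen after their values were seen. Gchfr, whose product is the feedback regulator of GTP cyclohydrolase, had a log2 fold change of -0.38 (adjusted p = 0.107). With the replicate block Gchfr was called lower (adjusted p = 0.0174). Pdxk, the kinase that makes the pyridoxal phosphate used by Ddc, stood at 0.18 (adjusted p = 0.164) and was called higher with the block (adjusted p = 0.0797). Slc23a2 stood at -0.17 (adjusted p = 0.168) and Cyb561 at -0.16 (adjusted p = 0.531). Neither was called with the block (adjusted p = 0.110 and 0.198). The later enzymes of tetrahydrobiopterin synthesis and recycling stood closer to 0, with Pcbd2 at 0.13, Pts at 0.087, Spr at 0.025, Pcbd1 at 0.0081 and Qdpr at 0.026, each with limma adjusted p of at least 0.482.

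Genes of further uptake and breakdown steps gave 0 calls among 4 tested (0 with the block). Over all tested genes 6.67% were called, and 17.9% with the block. In lists as short as those of this paragraph, 0 calls is near that share. The lowest p belonged to Akr1a1, an aldehyde reductase, at 0.10 (limma adjusted p = 0.378), and to Slc29a4, a low-affinity monoamine transporter, at 0.12 (adjusted p = 0.553). Maob and the dopamine transporter gene Slc6a3 lay below the array median on all 6 arrays. Of the paralogous enzymes 3 were tested and 0 called. Pam, a copper and ascorbate enzyme of peptide amidation related to Dbh, stood at -0.24 (adjusted p = 0.192), and Tph1, a tryptophan hydroxylase related to Th, at 0.28 (adjusted p = 0.508). With the block Pam fell (adjusted p = 0.0576) and Tph1 rose (adjusted p = 0.0969). The 2 tested receptor genes, Drd1 at -0.12 and Drd4 at 0.055, did not pass (adjusted p = 0.545 and 0.775).

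Of 10 tested transcription factors of noradrenergic cells, 1 fell and 0 rose, against 3.88% lower and 2.79% higher over all tested genes, and the median log2 fold change of the 12 with a probe set was 0.020. Isl1, a factor of sympathetic neuron differentiation, was the one that fell, at -0.35 (SE 0.076, limma adjusted p = 0.0571), and leaving out any control array or knockdown replicate 3 ended the call, with adjusted p reaching 0.222. Phox2a, a factor that activates the Dbh promoter, stood at 0.049 (SE 0.067, adjusted p = 0.779), and Hand2 at -0.066 (SE 0.055, adjusted p = 0.596), both chosen after their values were seen. Also chosen so, Gata3 stood at -0.21 (adjusted p = 0.150) and Insm1 at 0.22 (adjusted p = 0.205), and with the block Gata3 fell (adjusted p = 0.0703) and Insm1 rose (adjusted p = 0.04996). With the block the list gave 2 falls and 1 rise among the 10 tested, against 8.91% lower and 8.96% higher over all tested genes.

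Genes of the granule cargo list, most of whose products are stored in the vesicles that hold noradrenaline, gave 4 falls and 0 rises among 8 tested. Of all tested genes 3.88% fell. With the block 6 of the list fell, where 8.91% of all tested genes did. The list was chosen with earlier results of these data known, so these shares describe it and are no test of it. The median log2 fold change of all 12 with a probe set was -0.16, and these 12 include Cadps and Cadps2, which are not stored cargo. The granin gene Chgb fell by 0.48 on the log2 scale (SE 0.056, limma adjusted p = 0.00905) and kept its call with any 1 array left out. The neuropeptide gene Npy fell by 0.51 (SE 0.084, adjusted p = 0.0284), Scg3 by 0.37 (SE 0.063, adjusted p = 0.0285) and Chga by 0.30 (SE 0.060, adjusted p = 0.0463). These 3 calls ended when control replicate 2 or knockdown replicate 3 was left out. For Scg3 the same held of control replicate 1, and for Chga of control replicates 1 and 3 (adjusted p up to 0.202). Chosen after its value was seen, Scg2 stood at -0.082 (adjusted p = 0.494).

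**Figure D5:**
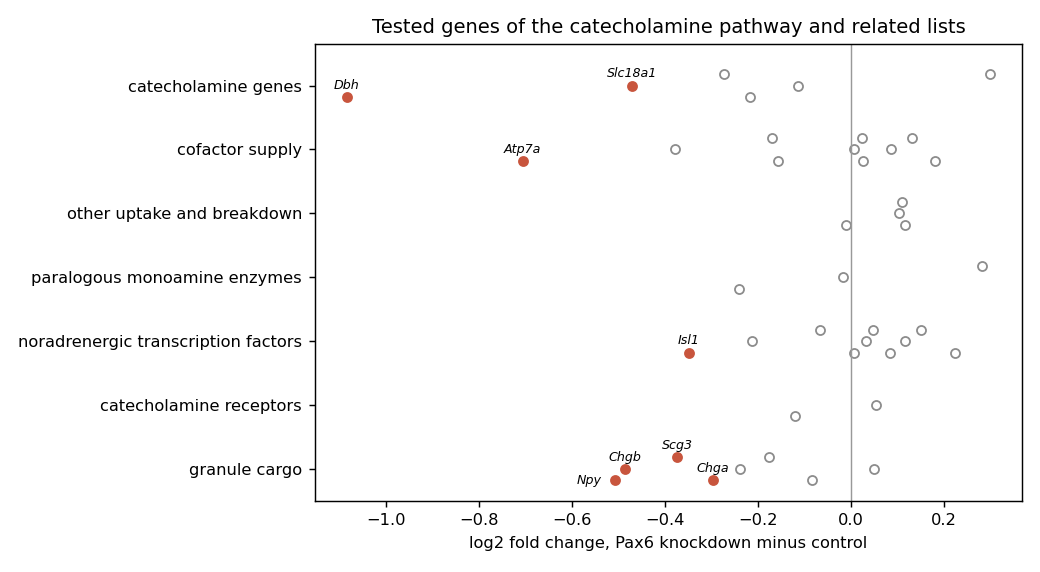
Log2 fold change (horizontal axis, knockdown minus control) of each tested gene in the catecholamine set and 6 related lists (vertical axis, points staggered for sight). Red points passed 10% FDR without the block and are named, and open points did not. No gene of these lists rose at this threshold, and the falls reach -1.08 in Dbh and -0.70 in Atp7a.

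The tested genes whose 6 values ran most closely with those of Dbh were Lrrn3 (Pearson r = 0.998), B2m (r = 0.998) and Lgi1 (r = 0.997), with log2 fold changes of -0.72, -0.19 and -0.90. For Slc18a1 they were Tmem59l (r = 0.997), S100a1 (r = 0.994) and Grap2 (r = 0.991), with log2 fold changes of -0.43, -0.16 and -0.27. These likenesses are over 6 arrays, picked from all tested genes, and the difference between the groups enters them.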

How the data were processed

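RNA (200 ng per sample) was hybridised to Affymetrix Mouse Gene 1.0 ST arrays. The deposited values are log2 summaries per probe set, which the authors made by RMA background correction and quantile normalization, and versions are not given in the sources used here. The table held 35556 probe sets, 0 missing values and array medians of 7.49 to 7.59. Quantile normalization hides a change in total RNA, and the number of arrays limits the precision. The study's methods call the replicates biological.

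Probe sets were named by the platform annotation, of which 21789 had 1 symbol, 1621 several and 12146 none. Identifiers of 21698 were found in RefSeq (GRCm38.p6), and 0 symbols changed. Where a gene had several single-symbol probe sets, the one with the highest mean was kept.

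The groups were compared with limma 3.58.1 in R 4.3.3 (lmFit, eBayes, two-sided, Benjamini-Hochberg over 11424 genes, 10% FDR as in the study). The procedure was also run on simulated data that held no shared replicate effect, so that run does not cover the shared deviations given next. Deviations from group means correlated at 0.57, 0.32 and 0.23 within replicates 1, 2 and 3 across genes, each above 0.1, as was control replicate 3 with knockdown replicate 2 (0.18). The main comparison has no block, and the one with the replicate number as a block is given beside it where it changes a call. The labels do not say what a number marks.

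The members and lists were chosen with earlier results of these data known. Named by rule were the 9 genes, Pax6, up to 4 called genes per list (or the 2 with the lowest p), and the 3 genes most correlated with each called member. Each gene's alternatives were the block, other low-value filters or a variance filter, array centring, a second quantile normalization, the mean of probe sets, array weights, a trended robust prior and leaving out each array, with the tested genes held fixed.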

Additional observations from a re-analysis of the deposited data

How the results depend on the processing

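The falls of Dbh and Slc18a1 kept their direction and call in every alternative that tested them, 17 and 16 settings. For Slc18a1 this says less, since it entered the test only through its 3 control arrays. It was kept in the test when 1 of those was left out, with limma adjusted p from 0.0899 to 0.0964. The 75th percentile filter dropped it. With the replicate block 2042 genes and 4 of the 9 catecholamine genes changed, and with array weights, whose estimation stopped before it converged, 4239 (2639 higher and 1600 lower, against 319 and 443) and 4. The block with no low-value filter, added after the data were seen, also gave 4 of the 9. The count of all changed genes was 245 when every gene was tested, 389 under a filter at the 25th percentile and 127 with the variance filter with 2 of the 9 in each, and 1383 after a second quantile normalization, with 3 of the 9. Leaving out 1 array gave between 51 (without control replicate 2) and 1285 (without knockdown replicate 2, 820 higher and 465 lower) changed genes, against 762, and 2 of the 9 each time. Slc18a2 passed 10% FDR at -0.27 with the block (with or without the filter), the 75th percentile filter or the trended robust prior, at -0.28 after a second quantile normalization and at -0.30 with array weights. Gch1 passed at 0.30 with the block (with or without the filter) and at 0.34 with array weights. Ddc alone changed sign, from -0.11 to 0.065, without knockdown replicate 2, and its values with 1 array left out ran from -0.32 to 0.065. Th passed in 0 of 16 alternatives (adjusted p 0.102 to 0.650). Detection over background was not measured for any probe set, which matters most for values near or below the array median, as in Slc18a1, Pnmt, Slc6a2 and Maoa.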
